A study of Homo sapiens with 6 samples.

Results

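MYC, FOSL1 and EGR1 are transcription factors that growth factor signalling is known to induce, and they are described here in U87MG, an established human glioblastoma cell line. They were taken by gene name from the deposited table, where each has a single row, so the set is 3 genes of the 1630 listed. Total RNA of 6 libraries was sequenced, of which 3 carried a short hairpin RNA against CREPT (shCREPT, genotype label CREPT Knockdown) and 3 carried a control hairpin (shControl, genotype label NC). CREPT, encoded by RPRD1B, is known to bind the tail of the large subunit of RNA polymerase II. The series title ties CREPT to proliferation in glioblastoma, and the comparison asks which transcripts differ once it is targeted. The labels name no further treatment, time point, clone or hairpin sequence. All libraries come from this single line, and the labels do not say that replicates were separate cultures, so the p-values measure a spread that may be technical.

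Cells that receive a growth signal pass it through the MAP kinase cascade to serum response factor and its ETS partners, which switch on immediate early genes such as EGR1 within minutes. MYC, a basic helix-loop-helix factor that works as a dimer with MAX, drives ribosome production, metabolism and entry into S phase. FOSL1, also called FRA-1, is a FOS-family subunit of the AP-1 factor, stays expressed for longer than FOS itself, and is known in glioblastoma for its link to the mesenchymal state. EGR1 is a zinc finger factor that binds GC-rich DNA and activates both growth and growth-restraining genes. MYC and FOSL1 are also known targets of beta-catenin and TCF, a pathway in which CREPT has been described as a cofactor.

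The letters ahead of EGR1 are shown because they hold the elements through which growth signals are known to reach it. In RefSeq on GRCh38.p14 the 250 bases that precede its start lie at chr5:138465229-138465478 on the plus strand. Capitals mark CArG boxes, the element that serum response factor binds.
EGR1: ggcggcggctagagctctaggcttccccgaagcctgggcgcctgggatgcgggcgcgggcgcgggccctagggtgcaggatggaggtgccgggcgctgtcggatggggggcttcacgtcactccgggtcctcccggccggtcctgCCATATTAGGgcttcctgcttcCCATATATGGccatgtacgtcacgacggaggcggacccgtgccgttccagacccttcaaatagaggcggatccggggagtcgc

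This window holds 2 CArG boxes, at 105 to 96 and at 83 to 74 bases before the start. Of 27305 promoters of the same length in the table, 312 hold at least 1 CArG box on either strand (1.14%) and 9 hold 2 or more. The motif GCGNGGGCG, known for EGR proteins themselves, occurs once in the EGR1 window on the plus strand, 198 to 190 bases before the start, and 8.25% of all promoters hold it on either strand. No copy of TGANTCA, the AP-1 element (6.60% of promoters), or of CACGTG, the E-box of MYC and MAX (6.49%), was found on either strand of this window. None of the searched motifs overlapped another there. These matches describe letters only, and binding was not measured. The promoter table held no entry for MYC or FOSL1.

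By GENCODE v29 on GRCh38, MYC (ENSG00000136997) spans bases 127735434 to 127741434 of chromosome 8 on the plus strand. FOSL1 (ENSG00000175592) spans 65892049 to 65900573 of chromosome 11 on the minus strand. EGR1 (ENSG00000120738) spans 138465490 to 138469315 of chromosome 5 on the plus strand. All are protein-coding, with 9, 5 and 1 annotated transcripts in that order. No other gene annotated in that release overlaps any of them. The labels do not say that reads of the 2 strands were kept apart, and antisense transcripts outside that release were not checked.

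Per-library values are the authors' normalized signal, on a linear scale whose unit and depth are not stated. Their sums over the listed genes lay between 31894 and 33331. Every row carries the authors' mark of significance, so the table is a selection for this same difference. RPRD1B has no row, so the target of the hairpin is not among the genes so marked under that name, and the knockdown was not checked. Tests used limma on log2(value + 1) over the 1184 genes that reached a minimum of 1 in 3 libraries or more. At an adjusted p of 0.05, 40.6% of these were called higher in shCREPT (481 genes) and 57.3% lower (678 genes), and after median-of-ratios rescaling 41.6% were higher (492) and 31.8% lower (377). The authors' deposited table marks 40.3% of all rows up and 59.7% down. The remaining 25 of the 1184 genes were not called by limma as deposited. Groups did not overlap in 96.8% of tested genes, so a call or a clean separation is the rule in this table. The median difference over all tested genes was −0.76 on the log2(value + 1) scale, and −0.13 after that rescaling, which lifts shCREPT against shControl by 0.88 (log2). Of the fixed astrocyte and glioblastoma markers 4 of 11 had a row, and their summed signal was 73.2 to 89.2 in shCREPT and 502 to 530 in shControl. All 4 were called lower, GFAP, S100B, CHI3L1 and SLC1A3, the last of which lost its call under that rescaling (limma adjusted p = 0.207). The sum over 2 of 5 endothelial markers was 11.6 to 13.7 in shCREPT and 43.3 to 45.3 in shControl, that over 2 of 6 fibroblast markers 432 to 492 in shCREPT and 1085 to 1099 in shControl, and that over 2 of 6 epithelial markers 20.8 to 23.8 in shCREPT and 5.55 to 7.06 in shControl. The 2 epithelial markers went opposite ways. CLDN4 averaged 21.6 in shCREPT and 2.85 in shControl, and KRT19 averaged 0.647 in shCREPT and 3.38 in shControl. None of 8 myeloid and none of 6 T cell markers had a row, which does not tell whether they are expressed. As all libraries come from a single line, these markers are read as its transcripts and not as a mix of cell types. In bulk RNA fewer expressing cells and less RNA per cell cannot be told apart. The mitochondrial ribosomal RNA MT-RNR1, the highest listed gene, had 6466 ± 498 in shCREPT and 3200 ± 258 in shControl (SD, n = 3), and the part of MT-RNR1 and of these markers in the values below was not tested.

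MYC and FOSL1 rose in shCREPT cells and EGR1 fell. MYC was 3.71-fold higher and FOSL1 2.99-fold higher, while EGR1 was 2.41-fold lower, as ratios of group means with 3 libraries each. All 3 genes passed the filter on low values and the limma test. With 97.9% of the tested genes called, that count is no more than the background. The EGR1 call, unlike the other two, was lost under median-of-ratios rescaling.

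MYC had 60.54, 60.45 and 57.51 in the shCREPT libraries, against 16.23, 15.17 and 16.72 in the shControl libraries. The lowest shCREPT library stood 3.44-fold above the highest shControl library, so the groups were far apart. Group means were 59.5 ± 1.72 in shCREPT and 16.0 ± 0.792 in shControl (SD, n = 3), with coefficients of variation of 2.90% and 4.94%. The difference was 1.83 ± 0.08 (SE) on the log2(value + 1) scale (limma adjusted p = 6.25e-06). It ranked 46 by size among the 481 genes called higher. In the authors' deposited table the fold is 3.60, with an adjusted p of 1.21e-83.

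FOSL1 had 79.57, 81.72 and 71.12 in the shCREPT libraries and 25.29, 24.04 and 28.28 in the shControl libraries. The groups did not overlap, and the lowest shCREPT library, replicate 3, still stood 2.51-fold above the highest shControl library. Means were 77.5 ± 5.60 in shCREPT and 25.9 ± 2.18 in shControl (SD, n = 3). The log2(value + 1) difference was 1.55 ± 0.10 (SE; limma adjusted p = 1.65e-05), rank 86 among the genes called higher. The authors' deposited table gives a fold of 3.09 with an adjusted p of 6.82e-71.

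EGR1 had 4.82, 4.05 and 3.25 in the shCREPT libraries, against 9.37, 9.06 and 10.82 in the shControl libraries. Every shCREPT library was below every shControl library, by a factor of 1.88 at the closest. Its means were 4.04 ± 0.785 in shCREPT and 9.75 ± 0.940 in shControl (SD, n = 3). The coefficient of variation reached 19.4% in shCREPT and 9.64% in shControl, the widest of the 3 genes in each group. On the log2(value + 1) scale EGR1 fell by 1.10 ± 0.14 (SE; limma adjusted p = 0.000245), rank 347 of the 678 genes called lower and so near the middle of them. In the authors' deposited table the log2 fold is −1.25 with an adjusted p of 3.17e-15. For each of the 3 genes an exact two-sided permutation test of the difference gave p = 0.1, the smallest that 3 against 3 libraries allow.

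**Figure D1:**
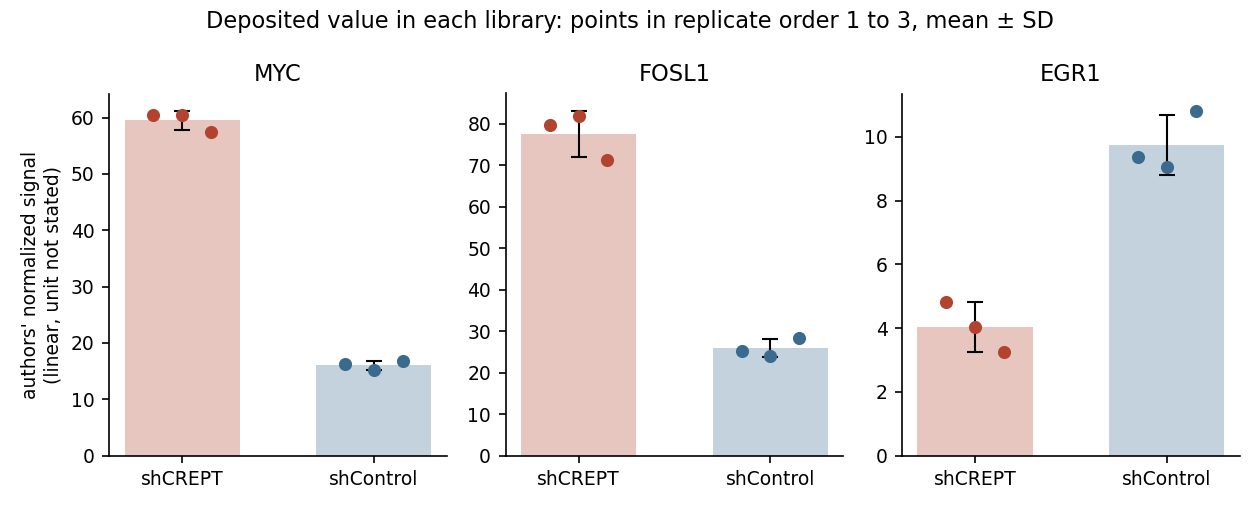
Deposited normalized signal (linear, unit not stated) of MYC, FOSL1 and EGR1, with shCREPT left of shControl in each panel; points are libraries, bars are means and whiskers are SD of 3 libraries. All shCREPT points lie above all shControl points for MYC and FOSL1, and below them for EGR1, where the means are 4.04 in shCREPT and 9.75 in shControl.

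**Figure D2:**
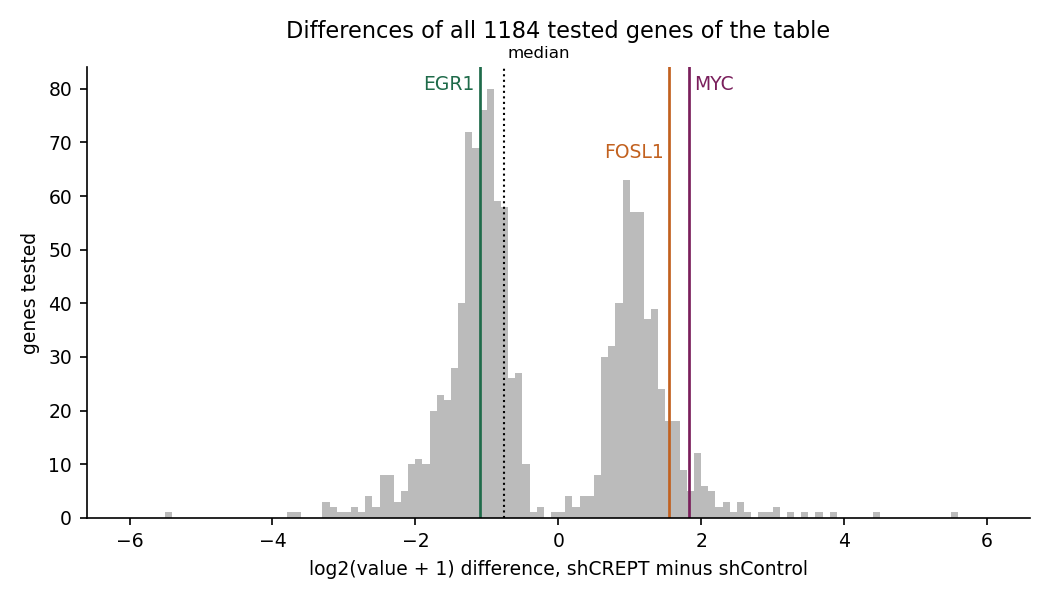
Histogram of the log2(value + 1) difference, shCREPT minus shControl, over the 1184 tested genes, with the 3 genes as lines and the median of −0.76 dotted. Few genes lie near 0, since only genes past the authors' thresholds are listed; EGR1 at −1.10 sits within the bulk of the lower genes, and FOSL1 at 1.55 and MYC at 1.83 sit in the upper part of the higher genes.

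Scaling between libraries moved the differences of all 3 genes, and of their calls only that of EGR1 was lost. Genes called lower across the table went from 678 as deposited to 377 after median-of-ratios rescaling. A lost call was thus common among lower genes. After median-of-ratios rescaling EGR1 had 6.42, 5.37 and 4.32 in shCREPT and 6.74, 6.57 and 7.82 in shControl. The groups then lay close together without overlap, and shCREPT replicate 1 came nearest to shControl. Its log2(value + 1) difference became −0.35 ± 0.14 (SE; limma adjusted p = 0.0612). MYC rescaled in the same way averaged 79.1 ± 2.33 in shCREPT and 11.6 ± 0.545 in shControl, and FOSL1 averaged 103 ± 7.44 in shCREPT and 18.7 ± 1.56 in shControl (SD, n = 3). The ratio of means thereby widened to 6.82-fold for MYC and 5.51-fold for FOSL1. The rescaling assumes that the typical listed gene did not change. By the authors' deposited folds this is not met, since every listed gene has an absolute log2 fold of at least 1.001. Of these rows 40.3% are marked up and 59.7% down, and unchanged genes, on which scaling could be checked, are not listed. The rescaled values therefore show how far a result hangs on scaling and are no better estimate of it.

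**Figure D3:**
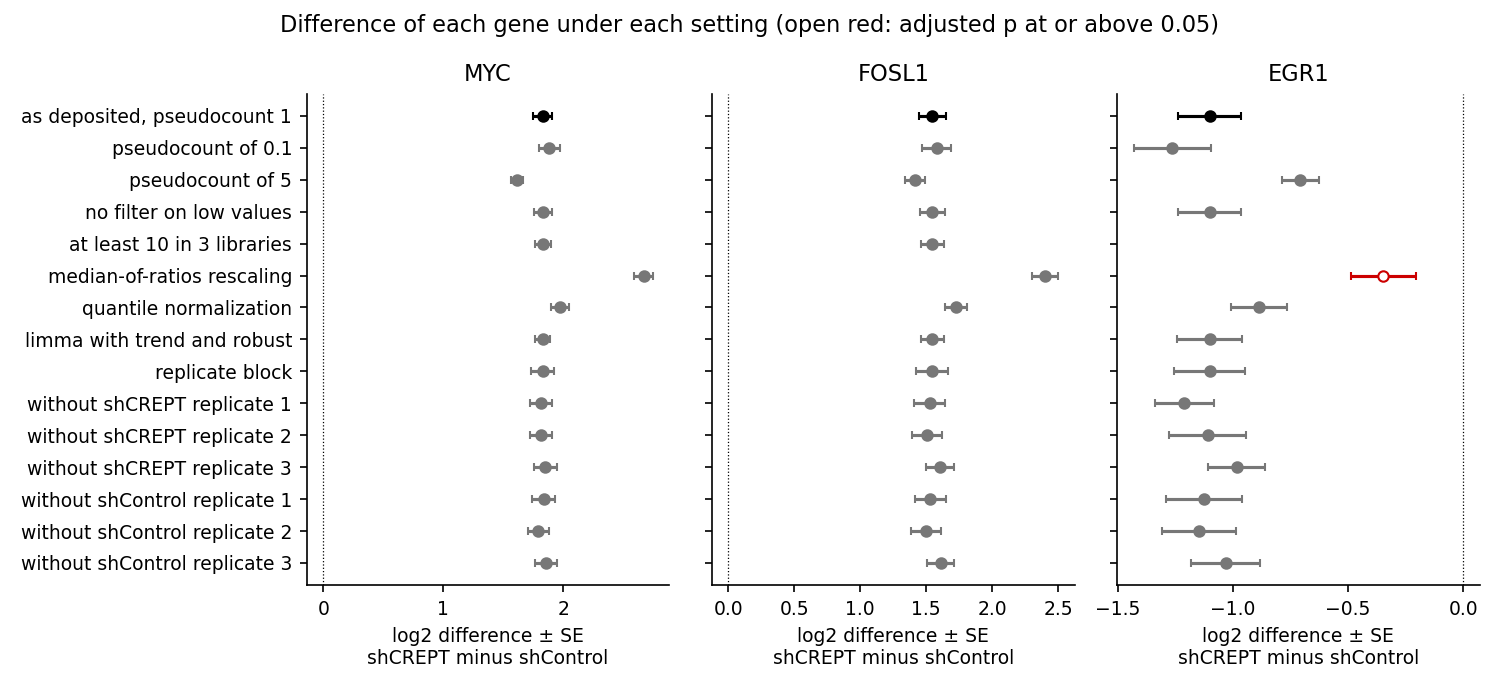
Difference of each gene, shCREPT minus shControl, on the log2 scale with its SE, for the values as deposited (black) and each alternative (grey); an open red point has a limma adjusted p of 0.05 or more. MYC and FOSL1 stay above 0 at every setting, and EGR1 stays below 0 but has an open point at −0.35 under median-of-ratios rescaling; the filter at 10 left EGR1 untested.

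Ratios of the genes within a library are unchanged by any scaling that multiplies a whole library by a single factor. Whether the authors' normalization was of that kind is not stated. The level of such a ratio depends on gene lengths if the unit is not per length, so its difference between groups alone is read. MYC over EGR1 was 12.6, 14.9 and 17.7 in the shCREPT libraries and 1.73, 1.67 and 1.55 in the shControl libraries. That ratio was 9.12-fold higher in shCREPT, with no overlap of groups. FOSL1 over EGR1 was 16.5, 20.2 and 21.9 in shCREPT and 2.70, 2.65 and 2.61 in shControl, a 7.35-fold difference. MYC and FOSL1 kept closer to each other, with MYC over FOSL1 at 0.761, 0.740 and 0.809 in shCREPT and 0.642, 0.631 and 0.591 in shControl. This last ratio was 1.24-fold higher in shCREPT, also without overlap. Relative to EGR1, both MYC and FOSL1 stood higher in every shCREPT library than in any shControl library. This follows from the separate values of the genes given above, so the ratios over EGR1 are not further evidence. These ratios are given with no test, since their genes were chosen with earlier results known.

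**Figure D4:**
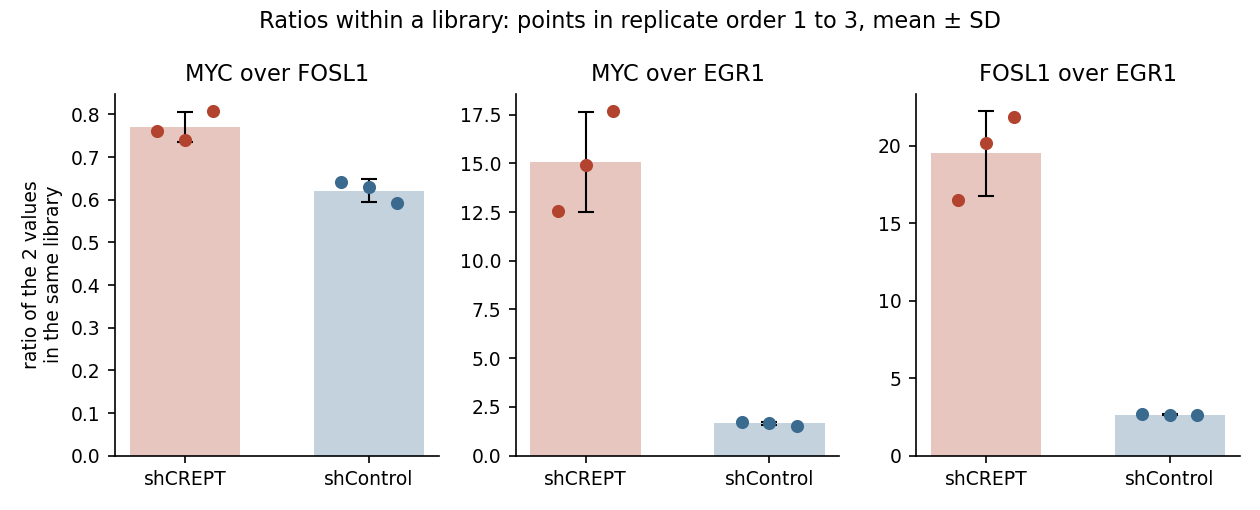
Ratio of the deposited values of a gene pair in the same library, shCREPT left of shControl; points are libraries, bars are means and whiskers are SD of 3 libraries. The ratios over EGR1 are several-fold higher in shCREPT, while MYC over FOSL1 averages 0.770 in shCREPT and 0.621 in shControl.

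Among the partners of MYC, 1 of 12 fixed genes had a row. This was MXD4, a MAX-binding repressor that opposes MYC, with 12.2 ± 0.643 in shCREPT and 29.4 ± 1.78 in shControl (SD, n = 3), a level 2.42-fold lower. Its log2(value + 1) difference was −1.21 ± 0.09 (SE; limma adjusted p = 2.27e-05), and −0.37 after median-of-ratios rescaling (limma adjusted p = 0.00625). MAX, MYCN, MYCL and MGA have no row. None of the 10 genes for MYC stability and its locus had a row either, among them the ubiquitin ligase subunit FBXW7 and the neighbouring noncoding gene PVT1. A missing row says only that the gene is not among those the table lists.

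Of 33 genes that MYC is known to activate, 4 had a row and 3 were tested, all of them higher in shCREPT, where 40.6% of all tested genes were higher. HMGA1, a chromatin protein that bends AT-rich DNA, had 264 ± 33.1 in shCREPT and 45.1 ± 2.82 in shControl. CDC25A, a phosphatase that activates cyclin-dependent kinases, had 23.2 ± 1.49 in shCREPT and 7.69 ± 0.137 in shControl, and the S-phase factor E2F1 had 27.0 ± 0.745 in shCREPT and 12.8 ± 0.444 in shControl (SD, n = 3 for all). The median log2(value + 1) difference of these 3 was 1.48, beside −0.76 over all tested genes. Every listed gene has an authors' absolute log2 fold of at least 1.001, so this median mostly restates the count of directions. TERT, the telomerase reverse transcriptase, was too low to test and its log2 fold is 1.72 in the authors' deposited table. The other 29 have no row, among them the ribosome biogenesis genes NCL, FBL and NOP56 and the polyamine enzyme ODC1, which are classic MYC targets. Of 9 genes that MYC is known to repress, GADD45A, a growth-arrest and DNA damage gene, rose 2.33-fold. NDRG1, a stress- and hypoxia-responsive gene, was 1.96-fold lower and lost its call under median-of-ratios rescaling (limma adjusted p = 0.724).

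Of 15 further genes of the AP-1 group, 14 have no row, including FOS, FOSB, FOSL2, JUN, JUNB, JUND and ATF3. The exception was BATF2, a basic leucine zipper protein that pairs with JUN and is known as an interferon-induced gene. It had 2.25 ± 0.235 in shCREPT and 0.530 ± 0.181 in shControl (SD, n = 3), a log2(value + 1) difference of 1.09 ± 0.12 (SE; limma adjusted p = 0.000113). Among 23 genes linked to AP-1, 8 had a row and 6 were tested, of which 5 were higher and 1 lower, where 40.6% of all tested genes were higher and 57.3% lower. Their median log2(value + 1) difference was 1.32, beside −0.76 over all tested genes. Given the authors' threshold on the fold, this median too mostly restates the count of directions. The cytokine IL11 rose 11.4-fold, HMGA1 5.84-fold, the urokinase PLAU 2.41-fold and the neutrophil chemokine CXCL8 2.07-fold. The coagulation initiator F3 had 12.5 ± 2.24 in shCREPT and 4.18 ± 0.663 in shControl, and PLAU had 320 ± 18.0 in shCREPT and 133 ± 7.89 in shControl (SD, n = 3). PTGS2, the inducible cyclooxygenase, was 2.05-fold lower and lost its call under median-of-ratios rescaling (limma adjusted p = 0.394). The collagenases MMP1 and MMP13 were too low to test, with means of 0.643 and 0.393 in shCREPT and 0.120 and 0.050 in shControl, and both are marked up in the authors' deposited table.

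None of the 11 genes of the EGR family and its cofactors had a row, including EGR2, EGR3, the EGR1 corepressor NAB2 and SRF itself. Nor did any of the 38 fixed immediate early genes, which include FOS, JUN, IER2, DUSP1, NR4A1, KLF4 and ZFP36. Whether these early response genes were unchanged cannot be read from a table of selected genes. Of 19 genes linked to EGR1, 5 had a row and 4 were tested, of which 2 were higher and 2 lower. With 40.6% of all tested genes higher and 57.3% lower, this split is close to the background. THBS1, the antiangiogenic matrix protein thrombospondin, had 25.9 ± 0.648 in shCREPT and 168 ± 6.87 in shControl (SD, n = 3), a level 6.48-fold lower. VEGFA, the vascular growth factor, was 2.31-fold lower, and GADD45A and F3 were the higher ones. Both THBS1 and VEGFA kept their calls under median-of-ratios rescaling, with log2(value + 1) differences of −1.79 and −0.33 (limma adjusted p = 0.00552 for VEGFA). PTGES, a prostaglandin E synthase, was too low to test, with a mean of 0.687 in shCREPT and 0.120 in shControl.

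Upstream of these factors, 4 of 20 growth factor receptor kinases had a row, and all 4 were lower in shCREPT, where 57.3% of tested genes were lower. PDGFRA, a receptor often amplified in glioma, had 9.48 ± 0.862 in shCREPT and 52.7 ± 3.41 in shControl (SD, n = 3), a level 5.55-fold lower. FGFR2 was 4.29-fold lower and the BDNF receptor NTRK2 10.3-fold lower, at 0.157 ± 0.0231 in shCREPT and 1.61 ± 0.176 in shControl (SD, n = 3). KDR, a VEGF receptor, was 2.11-fold lower and lost its call under median-of-ratios rescaling (limma adjusted p = 0.124). EGFR, MET and PDGFRB have no row. Of 21 ligands, VEGFA was the 1 tested, and FGF1 and IGF1 were too low to test. FGF1 overlapped between groups, with a mean of 2.30 ± 1.52 in shCREPT and 0.373 ± 0.236 in shControl (SD, n = 3).

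Of 20 genes for feedback and output of the MAP kinase cascade, 18 have no row, including DUSP6, SPRY2, SPRY4 and ETV5, which are used as readouts of ERK activity. ETV4, an ETS factor induced by ERK signalling, rose 2.44-fold to 5.88 ± 0.585 in shCREPT, against 2.41 ± 0.368 in shControl (SD, n = 3). The pseudokinase TRIB2 was 2.44-fold lower, at 40.4 ± 2.21 in shCREPT and 98.6 ± 4.997 in shControl (SD, n = 3). Among 16 further TCF target and pathway genes, AXIN2, LEF1, NKD1 and CCND1 have no row. TNFRSF19, a receptor also called TROY, was the 1 listed, 5.03-fold lower with 0.960 ± 0.191 in shCREPT and 4.83 ± 0.555 in shControl (SD, n = 3).

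MYC is known to promote the passage of cells from G1 into S phase, so genes that act in it were listed too. Whether they depend on MYC here was not tested. Of 19 fixed genes 8 had a row, and all 8 were higher in shCREPT, where 40.6% of all tested genes were higher. Their median log2(value + 1) difference was 1.15, beside −0.76 over all tested genes. With all listed genes past the authors' threshold on the fold, this median mostly restates that count. The replication helicase subunit MCM4 rose 2.99-fold to 266 ± 7.54 in shCREPT, against 89.0 ± 18.8 in shControl (SD, n = 3). MCM10, which helps to activate that helicase, rose 2.85-fold, CDC6 and CDT1, which load it, 2.33-fold and 2.26-fold, and cyclin A (CCNA2) 2.02-fold. Also counted here, E2F7 is a repressor of the E2F family and not a driver, and it was 2.19-fold higher. The cyclins D and E (CCND1, CCND2, CCND3, CCNE1 and CCNE2) and the kinases CDK2, CDK4 and CDK6 have no row. CDC25A and E2F1 belong to this list and to the list of genes activated by MYC. HMGA1 is on the MYC-activated and AP-1 lists, and F3 is on the AP-1 and EGR1 lists. GADD45A is on the MYC-repressed and EGR1 lists, and VEGFA on the EGR1 and ligand lists. The lists are therefore not separate evidence.

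**Figure D5:**
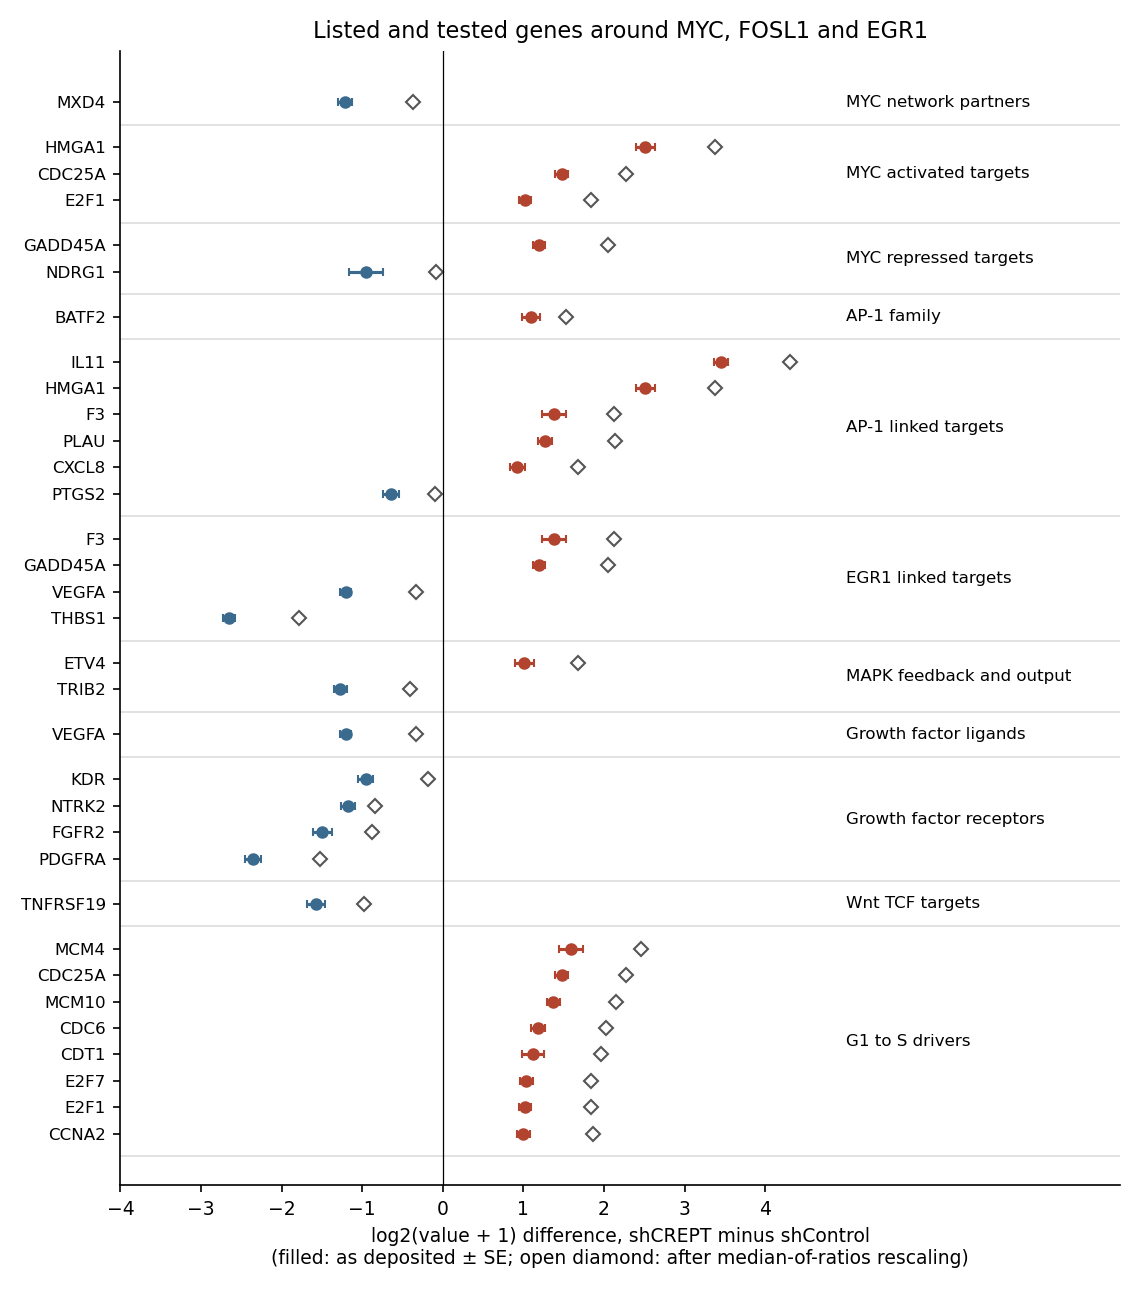
Log2(value + 1) difference, shCREPT minus shControl, of each listed and tested gene, grouped by role; filled points with SE are values as deposited (red higher, blue lower) and open diamonds are values after median-of-ratios rescaling. The G1 to S genes all lie right of 0 and the 4 receptors left of it at both scalings, and the diamonds of NDRG1, PTGS2 and KDR come close to 0.

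Over all 14 role lists, 33 of 240 distinct genes had a row and 27 were tested, 16 of them higher and 11 lower in shCREPT, where 40.6% of all tested genes were higher and 57.3% lower. None of these 27 turned sign under any alternative that tested it.

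By the smallest distance between centred log2(value + 1) profiles over the 6 libraries, the 3 genes most like MYC were EEF1A2, SEMA6B and LINC00973, at distances of 0.105, 0.178 and 0.207. EEF1A2, a translation elongation factor isoform similar in sequence to EEF1A1, had 490 ± 5.95 in shCREPT and 141 ± 9.27 in shControl, and the semaphorin SEMA6B had 35.8 ± 1.37 in shCREPT and 10.3 ± 0.939 in shControl (SD, n = 3). The median distance of all other tested genes from MYC was 3.20. Nearest to FOSL1 were the matricellular protein CCN3 (0.126), the planar polarity protein VANGL2 (0.162) and ENSG00000282024 (0.176), which the table describes as antisense to GMPR. CCN3 had 72.3 ± 2.59 in shCREPT and 24.6 ± 1.53 in shControl (SD, n = 3). Nearest to EGR1 were the pseudokinase NRBP2 (0.160), the pyruvate dehydrogenase kinase PDK3 (0.169) and the phenol sulfotransferase SULT1A1 (0.175), whose close paralogs can share its reads. NRBP2 had 13.87, 10.79 and 10.15 in shCREPT and 24.61, 22.36 and 27.25 in shControl, the same order of libraries as EGR1. Likeness over 6 libraries is mostly the difference between groups, and 315, 309 and 252 of 1183 other genes had a Pearson's r above 0.95 with MYC, FOSL1 and EGR1, counted across libraries and given as a description only.

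Positions were known only for the 1549 of 1630 listed genes with a GENCODE v29 entry. Among these, no other gene lay within 1000 kb of MYC. Within that distance of FOSL1 there were 10, of which the authors' deposited table marks 2 up and 8 down, where it marks 40.3% of all rows up and 59.7% down. The closest was EFEMP2, an extracellular matrix protein gene 18.5 kb away, with 5.03 ± 0.482 in shCREPT and 17.3 ± 0.215 in shControl (SD, n = 3), a direction opposite to that of FOSL1. BATF2 was the farthest, 895 kb away, and was higher as FOSL1 was. EGR1 had 1 listed gene in that range, WNT8A, 373 kb away and lower in shCREPT, with 0.290 ± 0.118 in shCREPT and 1.96 ± 0.143 in shControl (SD, n = 3).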

How the data were processed

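The libraries were made from total RNA with NEBNext Ultra reagents, per the labels' protocols. HISAT2, HTSeq and GRCh38 are named in the submitters' processing notes with no version or role. The deposited table gives 1 normalized signal value per library, written by the authors with 2 decimals; its normalization is not given in these sources, and depth is unknown, so no interval or count test was made. Per the file headers it also lists, for each gene, a fold change of the authors as a linear ratio and in log2 form, with raw and adjusted p-values. All 1630 rows have an absolute log2 fold of at least 1.001 and an adjusted p of at most 0.0497 in the authors' deposited table, so every test here was run on selected genes.

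Values were taken as log2(value + 1), filtered (at least 1 in at least 3 libraries, 1184 genes kept and 446 left out) and compared with limma 3.58.1 in R 4.3.3, without covariates, with Benjamini-Hochberg adjustment over all kept genes. This scale understates differences of low genes, so ratios of means are given too. The limma step was tested on simulated data of 1184 genes, of which 984 were unchanged, unlike this table of selected genes. It called 0.407% of the unchanged genes. Of genes changed by 0.5, 1 and 2 (log2) it called 74%, 86% and 100%. Any pair of libraries differed in 96.0% of genes or more, and none was treated as a repeat. Alternatives were pseudocounts of 0.1 and 5, no filter, a minimum of 10, quantile normalization, median-of-ratios rescaling, a robust limma fit with a mean trend, a block for replicate number, and leaving out each library. Named genes are the 3 chosen ones, members of the role and marker lists that have a row, and the 3 nearest profiles of each. The genes and lists were chosen with earlier results of these data known, and so were the within-library ratios, neighbours and motifs. Annotation came from GENCODE v29, where 1549 identifiers matched, and from RefSeq. Python 3.11.15, numpy 2.4.6, pandas 2.3.3, scipy 1.17.1 and matplotlib 3.10.9 were used.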

Additional observations from a re-analysis of the deposited data

How the results depend on the processing

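MYC and FOSL1 kept their direction and call under all 14 alternatives, with log2 differences of 1.62 to 2.67 and 1.42 to 2.40. EGR1 kept both under 12 of the 13 that tested it (−1.26 to −0.71, limma adjusted p at most 0.00201). It missed the threshold under median-of-ratios rescaling (−0.35, limma adjusted p = 0.0612), which lifts shCREPT against shControl by 0.88 (log2). Which scaling is right was not tested. A minimum of 10 left EGR1 out and 485 genes called of 487 tested, against 1159 of 1184, since fewer genes were tested. Leaving out 1 library gave 1.79 to 1.86 for MYC, 1.50 to 1.61 for FOSL1, −1.21 to −0.98 for EGR1 and 1137 to 1152 genes called. Of 480 values for the other 35 list and marker genes tested, 476 kept direction and call and 4 lost the call, those of NDRG1, PTGS2, KDR and SLC1A3 under that rescaling; none reversed. Deviations from the group means showed no pairing by replicate number (r = −0.11, 0.02 and −0.18), and with the replicate block 1156 genes were called and the differences of 1.83, 1.55 and −1.10 stayed called. Depth is unknown and sets no bound.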
